A study of Mus musculus with 12 samples.

Results

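Fyn, Gata3, Ccr7 and Gzmm are 4 genes of T cell signalling, identity, homing and killing, and they were followed here over 6 groups of mouse samples. They were found as the probes that carry exactly 1 of these symbols in the probe annotation, which gave 5 of the 20736 probes of the array and 4 of the 8708 genes with a single symbol. Gata3 has 2 probes, 2745 and 15459, and Fyn (probe 9000), Ccr7 (probe 582) and Gzmm (probe 13736) have 1 each.

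The data are log2 ratios from 12 cDNA arrays with 2 colour channels, 2 arrays in each group, where the second channel always held RNA of B6 mice. In 2 groups spleen T cells came from mice given bone marrow of the other strain, namely B6 recipients of NOD marrow (NODtoB6) and NOD recipients of B6 marrow (B6toNOD). The other groups were spleen T cells of NOD.H2h4 mice, which are NOD mice with another MHC haplotype, spleen T cells and, as a separate group, kidney cells of B6.NODIdd1,5 mice, and spleen T cells of NOD mice, the strain that develops autoimmune diabetes. B6.NODIdd1,5 mice have a B6 background with 2 diabetes intervals of NOD, Idd1 (chromosome 17, with the MHC) and Idd5 (chromosome 1). The B6 channel held spleen T cells on the 10 spleen arrays and kidney cells on the 2 kidney arrays. The age and sex of the mice, the way T cells were purified, the irradiation and the share of host cells in the marrow recipients, and whether the arrays of a group used separate mice are unknown here. The p-values therefore measure the spread between these arrays, which may be technical.

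Fyn is a Src family kinase that acts beside Lck just below the T cell receptor. Gata3 is a zinc finger transcription factor that the T lineage needs in the thymus and that drives the T helper 2 programme. Ccr7 is the receptor for the chemokines Ccl19 and Ccl21 and leads naive T cells into lymph nodes and the T cell zones of the spleen. Gzmm encodes granzyme M, a serine protease of cytotoxic granules that is best known from natural killer cells. Fyn and Gata3 are also used outside the immune system, Gata3 among other places in the collecting duct of the kidney. In the RefSeq table of assembly GRCm38.p6, Fyn and Gzmm lie on chromosome 10, Gata3 on chromosome 2 and Ccr7 on chromosome 11, so none of the 4 lies on the chromosomes of Idd1 or Idd5.

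All values are log2 ratios to B6 with the median of each array subtracted, so 0 is the typical feature of an array and not an absolute level. The array medians before centring lay between -0.88 and -0.0087, and 18837 to 20558 probes per array had a value. The mean shift made by centring was 0.23 in NODtoB6, 0.76 in B6toNOD, 0.80 in NOD.H2h4, 0.18 in T cells of B6.NODIdd1,5 mice, 0.46 in B6.NODIdd1,5 kidney and 0.15 in NOD. The arrays also differed in spread after centring, with a median absolute deviation of 0.29 and 0.36 in NOD and 0.91 and 0.89 in B6toNOD. A given log2 ratio is thus less extreme among the features of B6toNOD than among those of NOD. Errors of differences are standard errors of the limma fit with n = 2 arrays per group, and a gene is said to have risen or fallen where its adjusted p was under 0.05. Which dye marked which RNA on the marrow arrays was not stated in the labels. Their direction was taken as likely the same as on the other arrays, because the labels name the recipients' T cells in the first channel and B6 T cells in the second. Every sign given for NODtoB6 and B6toNOD against B6 turns if that is wrong. The files hold no spot intensities, so the T cell identity of the samples could not be checked by level. Of 9 defining T cell markers only Cd4 is on the array under a single symbol. It has no value in B6toNOD and B6.NODIdd1,5 T cells. Its mean was 1.35 in NODtoB6, -0.56 in NOD.H2h4 and -0.08 in NOD T cells, and none of these means was past the threshold against B6. The arrays behind them were far apart. Cd4 was at 0.70 and 2 in NODtoB6, 0.06 and -1.19 in NOD.H2h4, and -0.38 and 0.22 in NOD T cells. Members of the kinase, chemokine receptor and granzyme families share sequence, and cDNA probes can bind RNA of a close relative, which these files cannot show.

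Fyn was higher than in B6 in NOD T cells and lower in B6toNOD and in both B6.NODIdd1,5 tissues. It was 1.76-fold higher than in B6 in NOD T cells, 1.80-fold lower in B6.NODIdd1,5 T cells and 2.01-fold lower in B6.NODIdd1,5 kidney. On the 2 arrays of each group, the log2 ratio of Fyn was 0.17 and 0.05 in NODtoB6, -0.60 and -0.41 in B6toNOD, 0.07 and 0.64 in NOD.H2h4, -1.04 and -0.66 in B6.NODIdd1,5 T cells, -1.12 and -0.89 in B6.NODIdd1,5 kidney, and 0.77 and 0.86 in NOD T cells. Both NOD arrays were above every other array, and all arrays with B6 marrow or a B6.NODIdd1,5 origin were below 0. From lowest to highest the group means ran B6.NODIdd1,5 kidney, B6.NODIdd1,5 T cells, B6toNOD, NODtoB6, NOD.H2h4 and NOD T cells. The arrays of both B6.NODIdd1,5 tissues overlapped, and so did those of NODtoB6 and NOD.H2h4, while the other neighbours in that order did not. With the marrow arrays turned, B6toNOD (0.51) would stand between NOD.H2h4 and NOD, and NODtoB6 (-0.11) between B6.NODIdd1,5 T cells and NOD.H2h4. In these mixed samples, fewer cells that express a gene and less of its RNA per cell cannot be told apart.

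Against B6, Fyn rose by 0.81 ± 0.15 in NOD T cells (adjusted p = 0.0156). It fell by 0.51 ± 0.15 in B6toNOD (adjusted p = 0.0259), by 0.85 ± 0.15 in B6.NODIdd1,5 T cells (adjusted p = 0.00529) and by 1.01 ± 0.15 in B6.NODIdd1,5 kidney (adjusted p = 0.00226). With arrays scaled to the same spread, the B6toNOD value was -0.33 and its call was lost. Fyn lay at percentiles 26.8 and 32.9 of the features of the B6toNOD arrays. In NODtoB6 it was at 0.11 ± 0.15 (adjusted p = 0.638) and in NOD.H2h4 at 0.36 ± 0.15 (adjusted p = 0.104), neither past the threshold. The NOD.H2h4 value passed without its replicate 1 (0.64, adjusted p = 0.0368). The rise in NOD rested on both arrays, since the adjusted p was 0.0918 without replicate 1 and 0.183 without replicate 2, within 0.0179 to 0.183 over the 12 fits that left out 1 array, and it was 0.141 as deposited. The fall in B6.NODIdd1,5 T cells was lost without replicate 1 (-0.66, adjusted p = 0.0656, within 0.00382 to 0.0656), that in B6toNOD was lost without either of its arrays (adjusted p = 0.173 and 0.0644, within 0.0136 to 0.173), and that in kidney was past the threshold in all 12 such fits (adjusted p = 0.00239 to 0.0447).

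The differences between groups were tested directly. Fyn was lower in B6.NODIdd1,5 than in NOD T cells by -1.66 ± 0.22 (adjusted p = 0.00203, 95% interval -2.17 to -1.16), and lower in B6toNOD than in NOD by -1.32 ± 0.22 (adjusted p = 0.00266, interval -1.82 to -0.82). With NOD marrow in a B6 host the difference from NOD was -0.70 ± 0.22 (adjusted p = 0.0598, interval -1.21 to -0.20), not past the threshold. Between the reciprocal transfers, NODtoB6 minus B6toNOD was 0.62 ± 0.22 (adjusted p = 0.0598). Both values sat near the threshold and passed it in some settings, as given in the closing section. With the marrow arrays turned, B6toNOD minus NOD became -0.30 (adjusted p = 0.294) and NODtoB6 minus NOD -0.92 (adjusted p = 0.0227). NOD.H2h4 minus NOD was -0.46 ± 0.22 (adjusted p = 0.199, interval -0.96 to 0.05), and became -1.11 as deposited (adjusted p = 0.0177) and -1.19 with arrays scaled to the same spread (adjusted p = 0.0119). B6.NODIdd1,5 T cells minus kidney was 0.16 ± 0.22 (adjusted p = 0.684), and its interval of -0.35 to 0.66 leaves room for a difference in either direction.

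**Figure D1:**
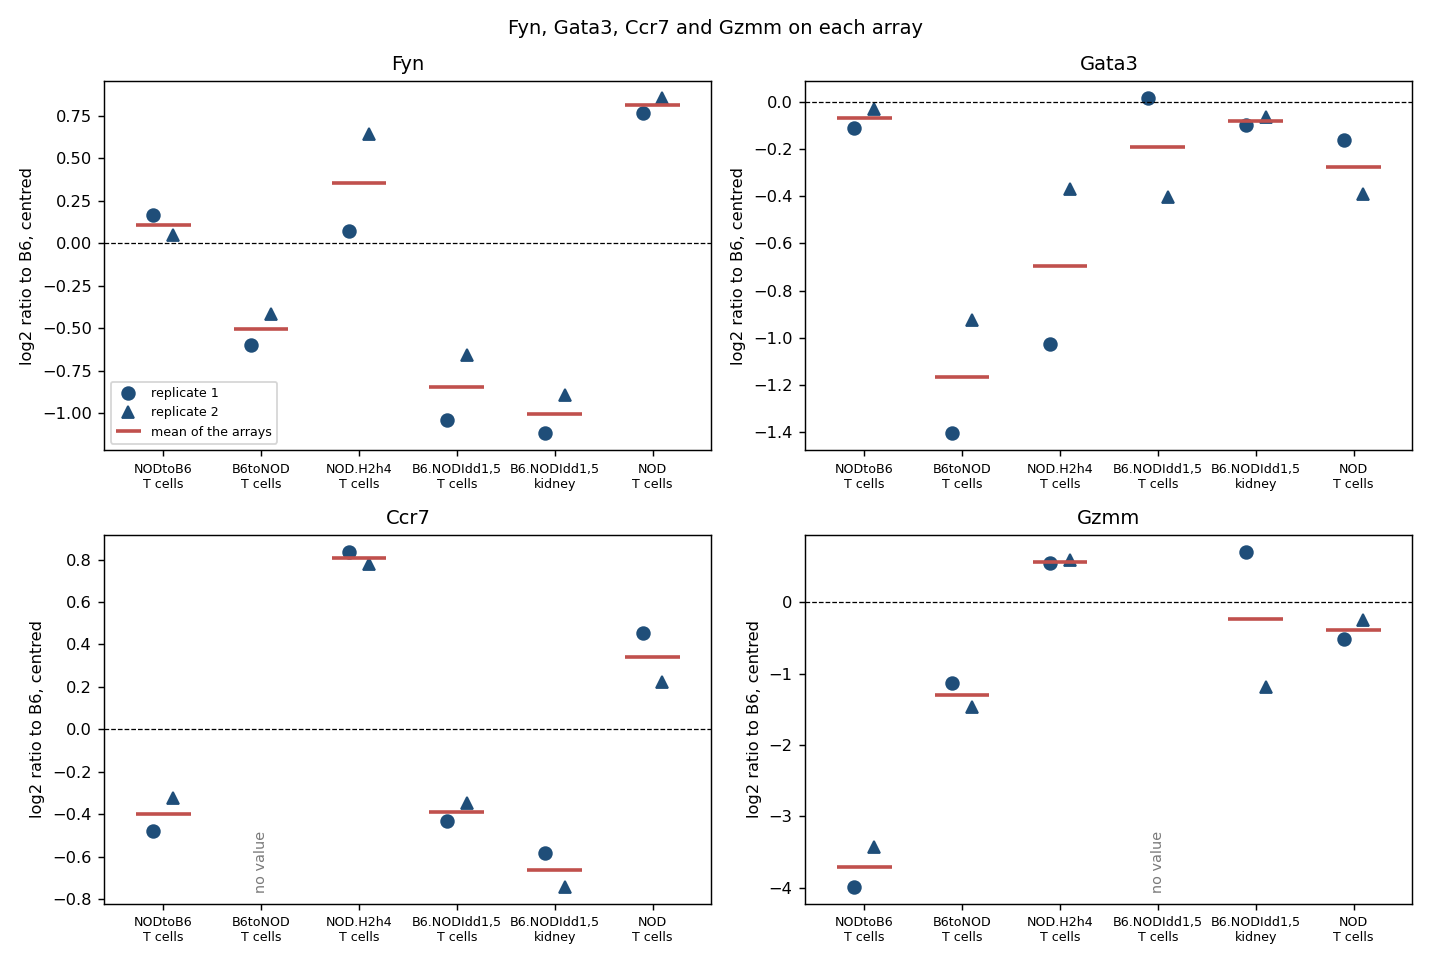
Log2 ratio to B6 of Fyn, Gata3, Ccr7 and Gzmm on each array after centring (vertical axes, with a scale of their own per gene), by group (horizontal axes). Circles are replicate 1, triangles replicate 2, red bars the mean of the arrays, and the dashed line is the typical feature. Fyn lies highest in NOD T cells (0.77 and 0.86), Gata3 lowest in B6toNOD (-1.41 and -0.93), Ccr7 highest in NOD.H2h4 (0.84 and 0.78) and Gzmm lowest in NODtoB6 (-3.99 and -3.43).

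Gata3 was lower than in B6 in T cells of NOD recipients of B6 marrow, by 2.24-fold on the mean of its probes. The mean of the probes was -0.11 and -0.03 in NODtoB6, -1.41 and -0.93 in B6toNOD, -1.03 and -0.37 in NOD.H2h4, 0.02 and -0.40 in B6.NODIdd1,5 T cells, -0.10 and -0.06 in B6.NODIdd1,5 kidney, and -0.16 and -0.39 in NOD T cells. Only 1 of the 12 arrays was above 0, and each group overlapped its neighbour in the order of means, which ran B6toNOD, NOD.H2h4, NOD, B6.NODIdd1,5 T cells, B6.NODIdd1,5 kidney and NODtoB6 from lowest to highest. The values of B6.NODIdd1,5 T cell replicate 1 and of both kidney arrays come from probe 15459 alone, so the gap between the B6.NODIdd1,5 T cell arrays and the place of both B6.NODIdd1,5 tissues in this order compare different probes. In the turned orientation of the marrow arrays, NODtoB6 (0.07) and B6toNOD (1.17) would be the highest. Against B6, Gata3 fell by 1.17 ± 0.18 in B6toNOD (adjusted p = 0.00145) and by 0.70 ± 0.18 in NOD.H2h4 (adjusted p = 0.0201). The other 4 groups lay between -0.27 and -0.07, with adjusted p-values of 0.469 in NOD, 0.487 in B6.NODIdd1,5 T cells, 0.781 in kidney and 0.815 in NODtoB6.

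The 2 Gata3 probes differed in NOD.H2h4. Probe 15459 was at 0.31 and 0.13 in NODtoB6, -1.32 and -1.29 in B6toNOD, 0.34 and 0.18 in NOD.H2h4, 0.02 and 0.02 in B6.NODIdd1,5 T cells, -0.10 and -0.06 in kidney, and 0.03 and -0.07 in NOD. Probe 2745 was at -0.53 and -0.19 in NODtoB6, -1.50 and -0.56 in B6toNOD, -2.39 and -0.91 in NOD.H2h4, and -0.36 and -0.71 in NOD, with -0.83 on replicate 2 of B6.NODIdd1,5 T cells and no value on the other 3 arrays. Both probes were below -0.5 on both B6toNOD arrays, while in NOD.H2h4 they pointed in opposite directions after centring. As deposited, both probes were below 0 in NOD.H2h4. Probe 15459 was then at -0.52 and -0.56 and probe 2745 at -3.25 and -1.65. With every probe as a feature of its own, a setting added after the values were seen, probe 15459 fell by 1.30 ± 0.08 in B6toNOD (adjusted p = 1.15e-05) and rose by 0.26 ± 0.08 in NOD.H2h4 (adjusted p = 0.0288). Probe 2745 fell by 1.65 ± 0.40 in NOD.H2h4 (adjusted p = 0.0233) and was at -1.03 ± 0.40 in B6toNOD (adjusted p = 0.0788). After centring, the fall of Gata3 in NOD.H2h4 is therefore a value of 1 probe. On the probe mean it shrank to -0.37 and was lost without NOD.H2h4 replicate 1. The change in B6toNOD was past the threshold in all 12 fits that left out 1 array (adjusted p = 0.00116 to 0.0201).

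**Figure D2:**
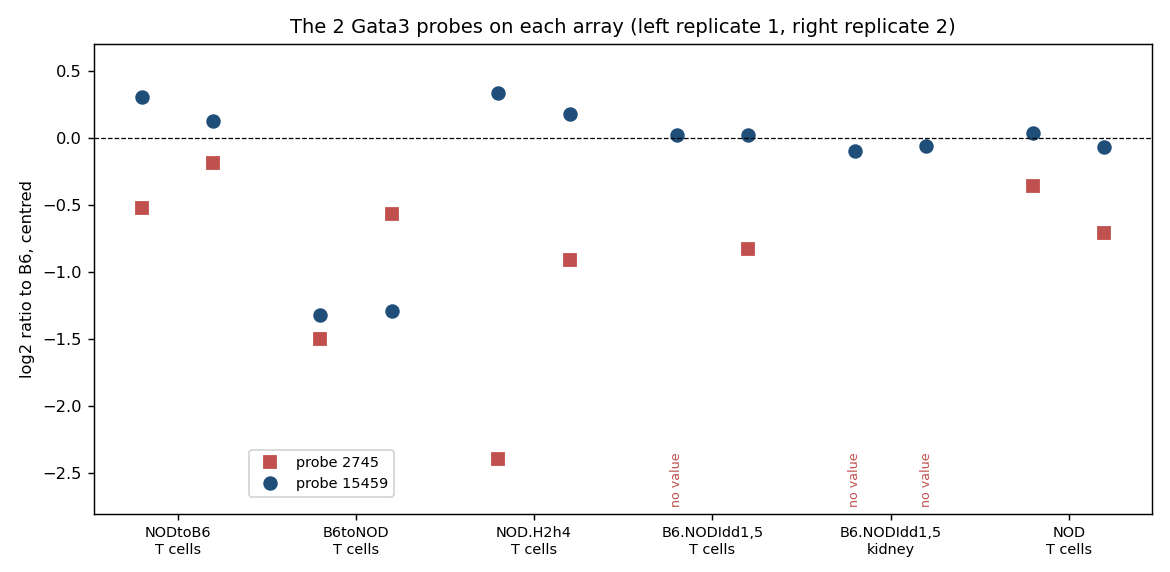
Log2 ratio to B6 of probes 2745 (squares) and 15459 (circles) of Gata3 on each array after centring (vertical axis), by group (horizontal axis), with replicate 1 on the left and replicate 2 on the right. Both probes are low in B6toNOD, and in NOD.H2h4 probe 2745 is at -2.39 and -0.91 where probe 15459 is at 0.34 and 0.18.

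The marrow transfers differed in Gata3 directly. NODtoB6 minus B6toNOD was 1.10 ± 0.26 (adjusted p = 0.0143, interval 0.49 to 1.71), from group means of -0.07 in NODtoB6 and -1.17 in B6toNOD. On probe 15459 alone it was 1.52 ± 0.11 (adjusted p = 9.11e-05), and on probe 2745 alone 0.67 ± 0.56 (adjusted p = 0.397). On the probe mean the call was lost without NODtoB6 replicate 2 and without B6toNOD replicate 1 (0.86 to 1.34, adjusted p = 0.00982 to 0.0643 over the 12 fits) and with arrays scaled to the same spread (0.69, adjusted p = 0.0809). With the marrow arrays turned, NODtoB6 minus B6toNOD became -1.10 and B6toNOD minus NOD 1.44 (adjusted p = 0.00372). B6toNOD minus NOD was -0.89 ± 0.26 (adjusted p = 0.0325), a call that was lost with arrays scaled to the same spread (-0.28, adjusted p = 0.434), on probe 2745 alone (-0.50, adjusted p = 0.529) and in 5 of the 12 fits that left out 1 array, which were those without either NOD array, either kidney array or B6toNOD replicate 1 (adjusted p = 0.0209 to 0.15 over the 12). NODtoB6 minus NOD was 0.21 ± 0.26 (adjusted p = 0.648), NOD.H2h4 minus NOD -0.42 ± 0.26 (adjusted p = 0.328) and B6.NODIdd1,5 minus NOD T cells 0.08 ± 0.26 (adjusted p = 0.858). The last of these mixes probes, since B6.NODIdd1,5 T cell replicate 1 holds probe 15459 alone. On that probe the difference was 0.04 ± 0.11 (limma adjusted p = 0.832).

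Ccr7 was higher than in B6 in NOD.H2h4 T cells and lower in NODtoB6 and in both B6.NODIdd1,5 tissues. The log2 ratio of Ccr7 was -0.48 and -0.32 in NODtoB6, 0.84 and 0.78 in NOD.H2h4, -0.43 and -0.35 in B6.NODIdd1,5 T cells, -0.58 and -0.74 in B6.NODIdd1,5 kidney, and 0.46 and 0.23 in NOD T cells, with no value on either B6toNOD array. All 4 arrays of the unmanipulated NOD strains were above 0 and the other 6 below it. From lowest to highest the means ran B6.NODIdd1,5 kidney, NODtoB6, B6.NODIdd1,5 T cells, NOD and NOD.H2h4, and of these neighbours only NODtoB6 and B6.NODIdd1,5 T cells overlapped. If the marrow arrays are turned, NODtoB6 (0.40) would stand between NOD and NOD.H2h4.

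Against B6, Ccr7 rose by 0.81 ± 0.09 in NOD.H2h4 (adjusted p = 0.000755), which is 1.75-fold. That rise is relative to the typical feature: the deposited ratio was -0.02 and 0.04 on these arrays, and without centring the value was 0.0069 (adjusted p = 0.972, within 0.000426 to 0.972 over the settings tried). Ccr7 fell by 0.40 ± 0.09 in NODtoB6 (adjusted p = 0.0224), by 0.39 ± 0.09 in B6.NODIdd1,5 T cells (adjusted p = 0.0206) and by 0.66 ± 0.09 in B6.NODIdd1,5 kidney (adjusted p = 0.00238). With arrays scaled to the same spread, the calls in NODtoB6 and in B6.NODIdd1,5 T cells were lost. In NOD T cells Ccr7 was at 0.34 ± 0.09, just outside the threshold (adjusted p = 0.0638). The falls in NODtoB6 and in B6.NODIdd1,5 T cells were each lost without either array of the group (adjusted p = 0.0144 to 0.146 and 0.0137 to 0.141 over the 12 fits), and that in kidney was not (adjusted p = 0.00184 to 0.0445).

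Ccr7 was lower than in NOD T cells both in NODtoB6, by -0.74 ± 0.13 (adjusted p = 0.0123, interval -1.05 to -0.43), and in B6.NODIdd1,5 T cells, by -0.73 ± 0.13 (adjusted p = 0.00993, interval -1.04 to -0.42). The group means behind these differences were -0.40 in NODtoB6 and -0.39 in B6.NODIdd1,5 T cells, against 0.34 in NOD. Both differences use the same 2 NOD arrays. With the marrow arrays turned, NODtoB6 minus NOD became 0.06 (adjusted p = 0.796), which ends that call. It was also lost without NOD replicate 1 (-0.63, adjusted p = 0.0504), and both were lost as deposited (adjusted p = 0.0714 and 0.0736). NOD.H2h4 minus NOD was 0.47 ± 0.13 (adjusted p = 0.053, interval 0.16 to 0.78), and as deposited its sign turned (-0.18, adjusted p = 0.552). B6.NODIdd1,5 T cells minus kidney was 0.27 ± 0.13 (adjusted p = 0.198). Ccr7 was not compared with B6toNOD for lack of a value.

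Gzmm had by far the widest range of the 4 genes, with a 13.1-fold lower mean than B6 in NODtoB6 T cells. The log2 ratio of Gzmm was -3.99 and -3.43 in NODtoB6, -1.14 and -1.47 in B6toNOD, 0.55 and 0.59 in NOD.H2h4, 0.71 and -1.18 in B6.NODIdd1,5 kidney, and -0.52 and -0.25 in NOD T cells, with no value on either B6.NODIdd1,5 T cell array. Both NODtoB6 values lie in the lowest percent of features of their arrays, at percentiles 0.48 and 0.76. The arrays of each marrow transfer group lay below those of NOD and NOD.H2h4 T cells without overlap, and the lowest means were those of NODtoB6 and then B6toNOD. Turned, these means would be the highest, at 3.71 in NODtoB6 and 1.30 in B6toNOD. The kidney arrays disagreed by 1.89, a gap larger than that of 98.1% of the features of this group, and their mean carries no direction. Without replicate 1 the kidney value was -1.18 (adjusted p = 0.0318) and without replicate 2 it was 0.71.

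Against B6, Gzmm fell by 3.71 ± 0.41 in NODtoB6 (adjusted p = 0.0019) and by 1.30 ± 0.41 in B6toNOD (adjusted p = 0.0352). The fall in NODtoB6 was past the threshold in all 12 fits that left out 1 array (adjusted p = 0.000303 to 0.0176). The fall in B6toNOD was past it in 4 of these 12 fits (adjusted p = 0.00221 to 0.188), and it was lost without either of its own arrays. With arrays scaled to the same spread, the B6toNOD value was -0.86 and its call was lost. Gzmm was at 0.57 ± 0.41 in NOD.H2h4 (adjusted p = 0.311), -0.23 ± 0.41 in kidney (adjusted p = 0.707) and -0.38 ± 0.41 in NOD (adjusted p = 0.725), none past the threshold. Without either kidney array the NOD.H2h4 value passed (adjusted p = 0.0491). With only the arrays of NODtoB6 in the fit, which leaves 1 degree of freedom, its adjusted p was 0.116.

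Directly compared, Gzmm was lower in NODtoB6 than in B6toNOD by -2.41 ± 0.57 (adjusted p = 0.0187, interval -3.79 to -1.02) and lower in NODtoB6 than in NOD by -3.33 ± 0.57 (adjusted p = 0.0119, interval -4.71 to -1.94). B6toNOD minus NOD was -0.92 ± 0.57 (adjusted p = 0.261) and NOD.H2h4 minus NOD 0.95 ± 0.57 (adjusted p = 0.325). With the marrow transfer arrays turned, NODtoB6 minus B6toNOD became 2.41 and NODtoB6 minus NOD 4.09 (adjusted p = 0.0187 and 0.00523), so both calls were made in either orientation with opposite signs, the second at a different size. The call against B6toNOD was lost without NODtoB6 replicate 1 (-2.13, adjusted p = 0.0859) and without B6toNOD replicate 1 (-2.24, adjusted p = 0.0669), and as deposited (-1.88, adjusted p = 0.0503), and that against NOD was lost without NOD replicate 2 (-3.19, adjusted p = 0.0809).

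**Figure D3:**
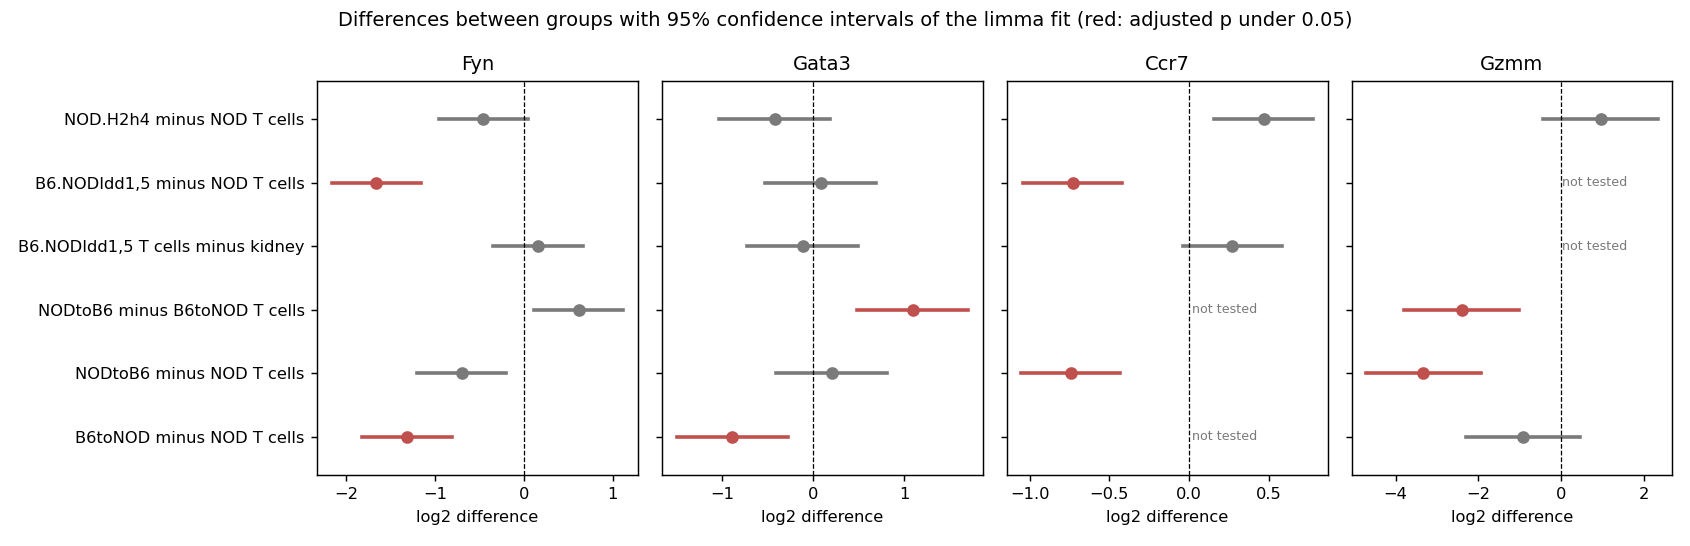
Differences of log2 ratios between groups (horizontal axes, with a scale of their own per gene) for the comparisons listed on the vertical axis, each the first group minus the second, with 95% confidence intervals of the limma fit. Red marks an adjusted p under 0.05. The widest differences are those of Gzmm in NODtoB6 (-3.33 minus NOD and -2.41 minus B6toNOD), and Fyn is lower than in NOD T cells in B6.NODIdd1,5 (-1.66) and B6toNOD (-1.32).

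The share of all features that passed the same test was large in most comparisons, so the counts of the 4 genes have to be read against it. Against B6, 2 of 4 genes passed in NODtoB6 (26.8% of all features), 3 of 3 in B6toNOD (51.4%), 2 of 4 in NOD.H2h4 (39.5%), 2 of 3 in B6.NODIdd1,5 T cells (30.3%), 2 of 4 in B6.NODIdd1,5 kidney (33.5%) and 1 of 4 in NOD (12.2%). Between groups, 2 of 3 genes passed in NODtoB6 minus B6toNOD (36% of all features), 2 of 4 in NODtoB6 minus NOD (19.1%), 2 of 3 in B6toNOD minus NOD (36%), 2 of 3 in B6.NODIdd1,5 minus NOD T cells (24.3%), 0 of 4 in NOD.H2h4 minus NOD (18.2%) and 0 of 3 in B6.NODIdd1,5 T cells minus kidney (21%). With so few genes, none of these counts sets them apart from the background. Without adjustment at the same threshold, limma called 1 gene, Ccr7, in NOD.H2h4 minus NOD and 0 in T cells minus kidney. The 4 comparisons with NOD share the NOD arrays.

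Genes around the 4 were counted in lists, and over all features 13.8% rose and 13.1% fell against B6 in NODtoB6, 28.5% and 22.9% in B6toNOD, 24.1% and 15.4% in NOD.H2h4, 14.4% and 15.9% in B6.NODIdd1,5 T cells, 22.4% and 11.1% in kidney, and 9.79% and 2.46% in NOD, with medians of -0.04 to 0.01. As deposited, the share of calls that were rises was 16.7% in NODtoB6 (51.3% after centring), 9.5% in B6toNOD (55.4%), 3.8% in NOD.H2h4 (61%), 26.8% in T cells of B6.NODIdd1,5 mice (47.6%), 8.5% in kidney (67%) and 55% in NOD (79.9%), so list directions depend on centring. Of 9 Src family kinases 4 are on the array under a single symbol: Fyn, Src, Blk (a B cell kinase) and Frk (an epithelial kinase). Beside Fyn, both kinases that passed a test against B6 were lower. Blk was at -1.24 and -1.56 in NODtoB6 (-1.40, adjusted p = 0.0444) and at -0.71 and -2.18 in NOD.H2h4 (-1.44, adjusted p = 0.0288), and Frk at -1.62 and -1.76 in NODtoB6 (-1.69, adjusted p = 0.0128) and at -1.19 and -1.06 in NOD.H2h4 (-1.12, adjusted p = 0.0337). The NOD.H2h4 calls of Blk and Frk were lost with arrays scaled to the same spread (adjusted p = 0.0527 and 0.0537). In NOD T cells, where Fyn rose, Blk was at -0.50 (adjusted p = 0.581) and Frk at -0.32 (adjusted p = 0.703).

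Of 32 genes of the T cell receptor complex and its proximal signalling, 12 are on the array. Against B6, 3 rose and 0 fell of 12 tested in NODtoB6 (26.8% of all features called, list median 0.11), 3 rose and 1 fell of 8 in B6toNOD (51.4%, median 0.21), 0 rose and 4 fell of 12 in NOD.H2h4 (39.5%, median -0.37), 0 rose and 4 fell of 11 in B6.NODIdd1,5 T cells (30.3%, median -0.35), 1 rose and 2 fell of 12 in kidney (33.5%, median -0.39) and 1 rose and 0 fell of 12 in NOD (12.2%, median -0.03). Fyn is among them. The adaptor Lcp2 (SLP-76) rose by 1.33 ± 0.18 in NODtoB6 and by 0.77 ± 0.18 in B6toNOD, and fell by 0.62 ± 0.18 in NOD.H2h4. As deposited Lcp2 was at 0.007 in B6toNOD (adjusted p = 0.98), and with arrays scaled to the same spread its calls in B6toNOD and NOD.H2h4 were lost (adjusted p = 0.0748 and 0.0648). Ptpn6 (SHP-1), a phosphatase that dampens receptor signalling and is abundant in myeloid cells, rose by 0.33 ± 0.08 in NODtoB6 and 0.98 ± 0.08 in B6toNOD, and fell by 0.42 ± 0.08 in NOD.H2h4 and 1.01 ± 0.08 in B6.NODIdd1,5 T cells. As deposited both rises of Ptpn6 were lost, at 0.096 in NODtoB6 (adjusted p = 0.575) and 0.22 in B6toNOD (adjusted p = 0.11). Cd247, the zeta chain of the receptor, fell by 1.23 ± 0.32 in B6.NODIdd1,5 T cells (adjusted p = 0.0315), beside the fall of Fyn there. Its arrays in this group were far apart, at -1.99 and -0.47. The adaptor Sh2d1a (SAP), which brings Fyn to receptors of the SLAM family, rose by 0.65 ± 0.16 in NODtoB6, a call lost as deposited (0.42, adjusted p = 0.193) and with the running median (adjusted p = 0.547), and fell by 1.24 ± 0.16 in NOD.H2h4.

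Gata3 belongs to a list of 28 transcription factors of the T lineage and of helper subsets, 17 of them on the array. Against B6, 5 rose and 7 fell of 16 tested in B6toNOD (51.4% of all features called, list median -0.42), 5 rose and 4 fell of 17 in NOD.H2h4 (39.5%, median -0.02), 1 rose and 2 fell of 17 in NODtoB6 (26.8%, median 0.04), 0 rose and 3 fell of 14 in B6.NODIdd1,5 T cells (30.3%, median -0.31), 3 rose and 4 fell of 17 in kidney (33.5%, median -0.08), and 1 rose and 1 fell of 16 in NOD (12.2%, median 0.00). In B6toNOD, where Gata3 fell, so did Id3, an inhibitor of E proteins (by 1.95 ± 0.39), and Ikzf1, the lymphoid factor Ikaros (by 1.43 ± 0.37). Bcl6, the factor of follicular helper cells, fell by 1.20 ± 0.28 and Ets1, a factor of T cell development, by 1.11 ± 0.24. The arrays were at -2.95 and -0.96 for Id3, -0.60 and -2.25 for Ikzf1 and -0.51 and -1.71 for Ets1. The fall of Bcl6 was lost with arrays scaled to the same spread (-0.79, adjusted p = 0.0808). Low values also occurred where Gata3 was not past the threshold. In NOD, Id3 was at -0.90 and -0.95 and Bcl6 at -1.36 and -1.28. Ikzf1 (0.46 and 0.50) and Ets1 (0.24 and 0.39) were above 0 there. In kidney, Ikzf1 was at -1.32 and -1.61, Ets1 at -0.75 and -0.80 and Bcl6 at -1.94 and -1.22. Id3 was at -0.09 and 0.04 there. In B6toNOD, Stat6, which carries the interleukin 4 signal that induces Gata3, rose by 0.97 ± 0.09. The interleukin 7 receptor Il7r rose there by 1.63 ± 0.29 and the interleukin 4 receptor chain Il4ra by 0.53 ± 0.07. As deposited none of these 3 rises passed, with Stat6 at 0.21 (adjusted p = 0.204), Il7r at 0.87 (adjusted p = 0.0525) and Il4ra at -0.23 (adjusted p = 0.14). Among 5 GATA factors on the array, 1 rose and 2 fell in B6toNOD (51.4% of all features called). In NOD.H2h4 2 rose and 1 fell (39.5%). Gata1, the erythroid member, fell by 1.14 ± 0.11 in B6toNOD and by 0.50 ± 0.11 in B6.NODIdd1,5 T cells. It rose by 0.66 ± 0.11 in NOD.H2h4, where it was -0.14 as deposited. Gata4 rose by 0.55 in B6toNOD (adjusted p = 0.00125) and by 0.43 in NOD.H2h4 (adjusted p = 0.00586). As deposited Gata4 was at -0.21 and -0.37 in these groups, neither past the threshold.

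Around Ccr7, 11 of 20 genes of lymph node homing and egress are on the array. Against B6, 4 rose and 1 fell of 11 in NODtoB6 (26.8% of all features called, list median 0.21), 4 rose and 0 fell of 10 in B6toNOD (51.4%, median 0.22), 4 rose and 0 fell of 11 in NOD.H2h4 (39.5%, median 0.38), 1 rose and 1 fell of 11 in B6.NODIdd1,5 T cells (30.3%, median 0.08), 1 rose and 1 fell of 11 in kidney (33.5%, median 0.10), and 1 rose and 0 fell of 11 in NOD (12.2%, median 0.08). In NODtoB6 the single gene that fell was Ccr7, while the integrin chains Itgb2 (1.22 ± 0.29), Itgb7 (0.86 ± 0.10) and Itga4 (0.67 ± 0.20), which serve adhesion and gut homing, rose. As deposited the calls of Itgb2 (0.99, adjusted p = 0.0707) and Itga4 (0.43, adjusted p = 0.132) were lost, and that of Itga4 also with arrays scaled to the same spread (adjusted p = 0.121) and with the running median (adjusted p = 0.246). Ackr4, a scavenging receptor for the ligands of Ccr7, rose by 0.40 ± 0.11 in NODtoB6, 0.35 ± 0.11 in B6toNOD, 0.51 ± 0.11 in NOD.H2h4 and 0.65 ± 0.11 in NOD, with -0.41 in B6toNOD and -0.29 in NOD.H2h4 as deposited, where the calls in NODtoB6 and NOD were also lost (adjusted p = 0.456 and 0.156). Klf2, a factor that keeps the egress and homing genes of resting T cells on, rose by 0.64 ± 0.07 in B6toNOD, 0.38 ± 0.07 in NOD.H2h4 and 0.28 ± 0.07 in B6.NODIdd1,5 T cells, with -0.13 in B6toNOD, -0.42 in NOD.H2h4 and 0.10 in B6.NODIdd1,5 T cells (adjusted p = 0.629) as deposited. Cxcr4, the only other chemokine receptor of 17 listed that is on the array under a single symbol, rose by 1.15 ± 0.13 in B6toNOD and by 0.57 ± 0.13 in kidney. As deposited neither passed, at 0.39 in B6toNOD (adjusted p = 0.1) and 0.11 in kidney (adjusted p = 0.68).

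Gzmm is the only granzyme with a single symbol on the array, and 10 of 23 granzyme and granule genes are there. Against B6, 4 rose and 1 fell of 10 in NODtoB6 (26.8% of all features called, list median 0.35), 3 rose and 1 fell of 8 in B6toNOD (51.4%, median 0.31), 1 rose and 3 fell of 10 in NOD.H2h4 (39.5%, median -0.26), 1 rose and 2 fell of 8 in B6.NODIdd1,5 T cells (30.3%, median -0.22), 1 rose and 0 fell of 10 in kidney (33.5%, median -0.23), and 1 rose and 0 fell of 10 in NOD (12.2%, median -0.13). In both marrow transfer groups the single gene that fell was Gzmm. Srgn, the proteoglycan core of granules in many blood cells, rose by 1.01 ± 0.12 in NODtoB6, 2.13 ± 0.12 in B6toNOD, 0.74 ± 0.12 in NOD.H2h4 and 1.06 ± 0.12 in NOD, and fell by 0.66 ± 0.12 in B6.NODIdd1,5 T cells, with -0.06 in NOD.H2h4 as deposited. Ctsc (cathepsin C), the protease that activates granzymes and neutrophil proteases, rose by 0.86 ± 0.17 in NODtoB6 and by 1.10 ± 0.17 in B6toNOD, the second a call that was lost as deposited (0.34, adjusted p = 0.102). Stxbp2, a granule fusion factor, rose by 0.53 ± 0.10 in NODtoB6 and 0.73 ± 0.10 in B6toNOD, with -0.03 in B6toNOD and 0.29 in NODtoB6 (adjusted p = 0.111) as deposited, and fell by 0.71 ± 0.10 in NOD.H2h4 and 0.49 ± 0.10 in B6.NODIdd1,5 T cells. Bsg, a glycoprotein gene near Gzmm on chromosome 10, rose by 0.58 ± 0.14 in NODtoB6 and 0.87 ± 0.14 in B6toNOD, and as deposited neither rise passed (0.35, adjusted p = 0.23, and 0.10, adjusted p = 0.642).

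**Figure D4:**
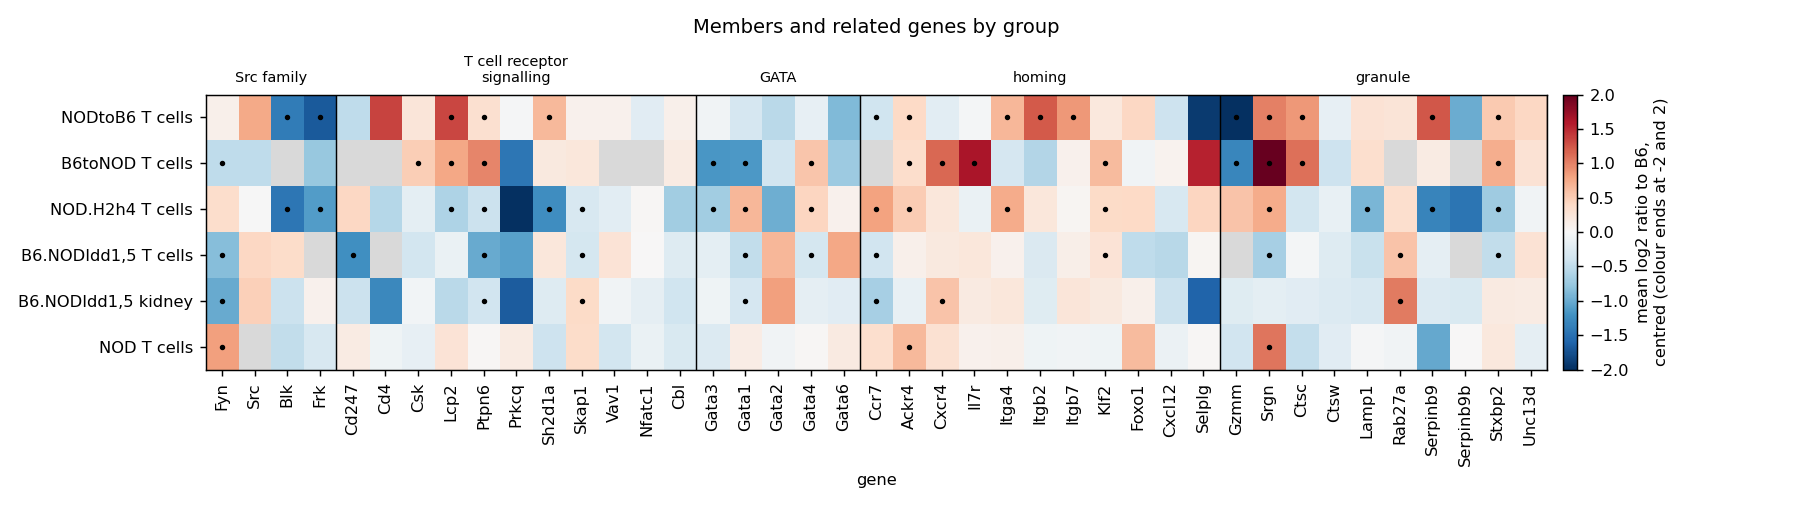
Mean log2 ratio to B6 after centring (colour, red higher and blue lower, ending at -2 and 2) of the 4 genes and of the related genes on the array, in columns by list, for the 6 groups in rows. Dots mark an adjusted p under 0.05, and grey cells lack a value on either or both arrays of the group. In both marrow transfer rows Gzmm is blue while Srgn and Ctsc beside it are red.

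Markers of other blood cells moved with the groups, and their part in the values of the 4 genes was not tested. Of 15 myeloid markers, 5 are on the array, and their mean on each array was 2.10 and 1.97 in NODtoB6, 3.98 and 3.93 in B6toNOD, 0.69 and 0.65 in NOD.H2h4, -0.64 and -0.52 in B6.NODIdd1,5 T cells, -0.20 and 0.03 in kidney, and 0.93 and 0.87 in NOD. All 5 rose in NODtoB6 (13.8% of all features rose) and in B6toNOD (28.5%), signs that turn if the marrow arrays are turned. In NOD.H2h4 3 rose and 2 fell (39.5% of all features called), with S100a9 at 2.32 and 2.33 and Lyz2 at -0.56 and -0.70. Of 15 erythroid markers, 6 are on the array (Gata1 among them), with means of 1.48 and 1.74 in NODtoB6, 0.08 and 0.26 in B6toNOD, 0.46 and 0.60 in NOD.H2h4, -0.74 and -0.71 in B6.NODIdd1,5 T cells, -0.12 and -0.15 in kidney, and 1.61 and 1.56 in NOD. Of 12 natural killer cell markers, 4 are on the array (Eomes, Fcgr3, Klrk1 and Ncr1), with means of 0.30 and 0.26 in NODtoB6, -0.55 and 0.35 in B6toNOD, -0.28 and -0.40 in NOD.H2h4, -0.04 and 0.00 in B6.NODIdd1,5 T cells, 0.16 and 0.12 in kidney, and -0.11 and -0.19 in NOD. In NODtoB6 these means hold Fcgr3 at 0.86 and 0.82, which is also 1 of the 5 myeloid markers, and Eomes at -0.45 and -0.62. The B6toNOD means cover different genes, since Klrk1 was at -4.32 on replicate 1 and has no value on replicate 2. The other markers there were Eomes at 0.91 and 0.87, Fcgr3 at 1.665 and 1.03 and Ncr1 at -0.45 and -0.86. Of 12 B cell markers, 3 are on the array (Cd79b, Blnk and the MHC gene H2-Aa), with means of -0.25 and -0.05 in NODtoB6, -2.04 and -2.81 in B6toNOD, -1.50 and -1.11 in NOD.H2h4, 0.46 and -0.74 in B6.NODIdd1,5 T cells, -0.28 and 0.39 in kidney, and -0.27 and -0.57 in NOD. The NODtoB6 means join opposite directions. H2-Aa was at 1.63 and 1.68 there, Blnk at -1.53 and -1.36 and Cd79b at -0.85 and -0.48. On B6toNOD replicate 2 H2-Aa has no value. These are ratios to B6, so which of these markers are near 0 in level cannot be read from them. Of 14 kidney markers, 5 are on the array, with means of 0.44 and 0.43 on the kidney arrays.

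For each of the 4 genes, the named genes with the most similar pattern over the arrays were taken by Pearson correlation of centred values, as a description only, since the points share arrays and groups. For Fyn, over 12 arrays and 6915 genes, these were Kit, the stem cell factor receptor (r = 0.934), Ubn1 (0.930), Zfp445 (0.925), Aimp2 (0.919) and AW549542 (0.917). Kit averaged -0.15 in NODtoB6, -0.51 in B6toNOD, 0.55 in NOD.H2h4, -0.99 in T cells of B6.NODIdd1,5 mice, -1.07 in kidney and 0.57 in NOD. For the probe mean of Gata3, again over 12 arrays, they were Gpr108 (0.915), Senp1 (0.910), Dtl (0.907), Mre11a (0.903) and AI837181 (0.894). All 5 had their lowest mean in B6toNOD, which a choice by similarity to Gata3 favours. These means were -1.81 for Gpr108, -1.27 for Senp1, -1.18 for Dtl, -1.08 for Mre11a and -2.25 for AI837181. In NOD.H2h4, where the Gata3 probes differed, the means were -0.91, -0.73, -0.65, -0.44 and -0.55 in the same order. For Ccr7, over the 10 arrays with a value and 6916 genes, they were Nrep (0.987), T2 (0.983), Nfya (0.977), Zfand2a (0.974) and Atp7a (0.970), and in B6toNOD, where Ccr7 has no value, Nrep averaged 0.12, T2 -0.81, Nfya 0.63, Zfand2a -0.80 and Atp7a 0.54. For Gzmm, over 10 arrays, they were Pld2 (0.967), 2210408F21Rik (0.954), Nes (0.950), Kif1c (0.941) and Thbd (0.933). Pld2 averaged -2.95 in NODtoB6, -1.55 in B6toNOD, 0.75 in NOD.H2h4 and -0.05 in NOD, and was at -0.01 in B6.NODIdd1,5 T cells, where Gzmm has no value.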

How the data were processed

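RNA of 12 mouse samples was measured on 12 cDNA arrays with 2 colour channels. The authors deposited a log2 ratio per probe, experimental RNA over B6, per the labels, which give Cy5 for the experimental RNA and Cy3 for B6 on 8 arrays. How the ratios were normalised, and with which software, is not stated. In the files 146 values equal the log2 of a ratio of 100000 and were treated as missing. Of 20736 probes, 13033 carry 1 symbol, 312 several and 7391 none, and 12850 symbols were found by gene identifier in a RefSeq table. Probes of a gene were averaged, which gave 16411 features, and each array was centred on its median. Group means were fitted over all 12 arrays with limma 3.58.1 (R 4.3.3, 6 residual degrees of freedom where all arrays have a value, prior 1.36) and tested against 0 or each other where every array compared had a value, with Benjamini-Hochberg adjustment over all features tested and a threshold of 0.05. The test against 0 leaves out the spread of B6 itself and does not cancel dye bias. The method was tested on simulated data. Pearson correlations between the arrays of a group were 0.505 to 0.760 over features and between groups -0.02 to 0.447, and precision is limited by having 2 arrays per group.

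The 4 genes and all lists were chosen with earlier results of these data known. Named were the 4 genes and up to 4 listed genes past the threshold per list and comparison, picked for large values or as closest to a member. The 5 genes most similar to each were also named, over the 10 arrays with a value for Ccr7 and Gzmm. Some listed genes with large values were left out, such as Serpinb9 in NODtoB6 (1.24, limma adjusted p = 0.0366) and Tcf12 in NOD.H2h4 (1.31 and 1.40). Replicate numbers did not pair the arrays: the correlation of deviations from the group means was -0.04 to 0.02 over 15 pairs of groups. Alternatives were values without centring, centring over all probes, arrays scaled to the same spread, a running median along the probe order, the ratio cap kept, the median of probes, features on all 12 arrays, the compared groups alone, a replicate block, the marrow arrays turned, each array left out and, added later, each Gata3 probe alone.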

Additional observations from a re-analysis of the deposited data

Results flagged for a closer look

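In 8 cases a test of the difference between groups itself passed the threshold (limma, Benjamini-Hochberg adjusted over all features). For Fyn these were B6.NODIdd1,5 minus NOD T cells, at -1.66 (adjusted p = 0.00203), and B6toNOD minus NOD, at -1.32 (adjusted p = 0.00266). For Ccr7 they were B6.NODIdd1,5 minus NOD T cells, at -0.73 (adjusted p = 0.00993), and NODtoB6 minus NOD, at -0.74 (adjusted p = 0.0123), which became 0.0601 (adjusted p = 0.796) with the marrow arrays turned. For Gata3 they were NODtoB6 minus B6toNOD, at 1.10 (adjusted p = 0.0143), and B6toNOD minus NOD, at -0.89 (adjusted p = 0.0325). For Gzmm they were NODtoB6 minus B6toNOD, at -2.41 (adjusted p = 0.0187), and NODtoB6 minus NOD, at -3.33 (adjusted p = 0.0119). In each case both arrays of one group lay on the same side of both arrays of the other. The 6 differences from NOD share the same 2 NOD arrays.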

How the results depend on the processing

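Of 881 values of single genes under the other settings chosen at the start, 770 kept their direction and side of the threshold. Of the others, 56 lost the call, 28 gained one and 27 changed sign. Many of the 770 could hardly move, so they are no count of independent checks. Among them, 455 came from fits that left out 1 array. Leaving out an array outside the compared groups keeps the value and moves only its error. The median of probes equals their mean for the 4 genes, since each has 1 or 2 probes. That setting reached them only through the other features, and none of their calls changed. With 2 arrays per group, leaving 1 out leaves a lone array that is assumed to vary like the other groups, and without intensities the signal over background is unknown. As deposited, without centring, the number of the 4 genes past the threshold became 0 in NOD, 1 in NOD.H2h4, 2 in NOD.H2h4 minus NOD, 1 in B6.NODIdd1,5 minus NOD and 1 in NODtoB6 minus NOD. The sign turned for Fyn in NOD.H2h4 (-0.45) and NODtoB6 (-0.12), Gzmm in NOD.H2h4 (-0.23), Ccr7 in NOD.H2h4 minus NOD (-0.18) and Gata3 in T cells minus kidney (0.17). With arrays scaled to the same spread the number was 2 in NOD and 1 each in B6.NODIdd1,5 T cells, NODtoB6, B6toNOD, NOD.H2h4 minus NOD, NODtoB6 minus B6toNOD and B6toNOD minus NOD. With features on all 12 arrays, which drops Ccr7 and Gzmm, it was 0 in NODtoB6 and 1 each in NOD.H2h4, B6.NODIdd1,5 T cells, kidney, B6.NODIdd1,5 minus NOD, NODtoB6 minus B6toNOD and NODtoB6 minus NOD. With the running median it was 2 in NOD and 1 in NOD.H2h4, and Gata3 in B6.NODIdd1,5 minus NOD (-0.0496) and Ccr7 in T cells minus kidney (-0.0018) turned. With only the compared groups in the fit it was 0 in B6.NODIdd1,5 T cells, NODtoB6, B6toNOD, NODtoB6 minus B6toNOD and NODtoB6 minus NOD, and 1 in NOD.H2h4 minus NOD, B6.NODIdd1,5 minus NOD and B6toNOD minus NOD. With the marrow arrays turned it was 1 in B6toNOD minus NOD. By construction the signs against B6 then turned in NODtoB6 (Fyn -0.11, Gata3 0.0695, Ccr7 0.40, Gzmm 3.71) and B6toNOD (Fyn 0.51, Gata3 1.17, Gzmm 1.30), and in NODtoB6 minus B6toNOD (Fyn -0.62, Gata3 -1.10, Gzmm 2.41). Ccr7 and Gzmm turned in NODtoB6 minus NOD (0.0601 and 4.09), as did Gata3 and Gzmm in B6toNOD minus NOD (1.44 and 1.69), and Fyn in B6toNOD minus NOD lost its call (-0.30, adjusted p = 0.294). From probe 15459 alone, added after the data were seen, Gata3 turned in NOD.H2h4 (0.26), B6.NODIdd1,5 T cells (0.021), NODtoB6 (0.22), NOD.H2h4 minus NOD (0.28) and T cells minus kidney (0.10). Leaving out 1 array gave 0 to 2 genes in NOD, 2 to 3 in NOD.H2h4, 0 to 2 in B6.NODIdd1,5 T cells, 2 to 3 in kidney, 1 to 2 in NODtoB6, 1 to 3 in B6toNOD, 0 to 1 in NOD.H2h4 minus NOD, 0 to 3 in NODtoB6 minus B6toNOD, 1 to 3 in NODtoB6 minus NOD and 1 to 2 in B6toNOD minus NOD. It turned Gata3 in B6.NODIdd1,5 minus NOD (-0.13 to 0.29), B6.NODIdd1,5 T cells (-0.40 to 0.0183) and T cells minus kidney (-0.32 to 0.10), Fyn in T cells minus kidney (-0.0356 to 0.35) and Gzmm in kidney (-1.18 to 0.71). For Gata3 in B6.NODIdd1,5 T cells, leaving out an array changes the probes. Replicate 1 holds probe 15459 alone (0.0183), and replicate 2 averages it (0.0237) with probe 2745 (-0.83). Except where a setting changes values or probes by its construction, the cause was not tested. With the replicate block, Fyn passed in NODtoB6 minus B6toNOD (0.62, adjusted p = 0.0345) and NODtoB6 minus NOD (-0.70, adjusted p = 0.039). The block changed no other call of the 4 genes. The number of all features called moved by over 1.5 times as well. As deposited it was 191 in NOD (1951 after centring), 10076 in NOD.H2h4 (6252), 4293 in NOD.H2h4 minus NOD (2835), 1954 in B6.NODIdd1,5 minus NOD (3516), 1410 in T cells minus kidney (3043) and 1419 in NODtoB6 minus NOD (2874). With arrays scaled to the same spread it was 4951 in NOD, 4512 in B6toNOD (7342), 5473 in B6.NODIdd1,5 minus NOD, 3127 in NODtoB6 minus B6toNOD (4918) and 4788 in NODtoB6 minus NOD. With only the compared groups in the limma fit it was 0 in B6.NODIdd1,5 T cells (4450), NODtoB6 (4103), B6toNOD, NODtoB6 minus B6toNOD and NODtoB6 minus NOD (4636, 4185, 4950, 4198 and 5006 without adjustment at the same threshold), 9689 in kidney (5222), 1711 in B6.NODIdd1,5 minus NOD and 2477 in B6toNOD minus NOD (5060). Leaving out 1 array gave 189 to 2459 in NOD, with the lowest without NOD replicate 2, 3830 to 7512 in NOD.H2h4, 2483 to 6385 in kidney, 2317 to 5451 in NODtoB6, 993 to 3829 in NOD.H2h4 minus NOD, 1613 to 4529 in B6.NODIdd1,5 minus NOD, 1495 to 3747 in T cells minus kidney and 884 to 3890 in NODtoB6 minus NOD.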
